A study of Homo sapiens with 12 samples.

Results

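The BCL2 family sets the threshold at which a cell's mitochondria release cytochrome c and the cell enters apoptosis. BAX, BAK1 and BOK build pores in the outer mitochondrial membrane. The guardians BCL2, BCL2L1 (BCL-XL) and MCL1 restrain BAX and BAK1, and the BH3-only proteins BID, BIK, BBC3 (PUMA) and PMAIP1 (NOXA) free or activate BAX and BAK1. In liver cells BCL2L1 and MCL1 are known as the guardians that hepatocytes rely on, and BID relays death-receptor signals to mitochondria. These 10 genes, 3 guardians, 3 pore formers and 4 BH3-only genes, were listed by symbol and matched to 1 Ensembl identifier each among the 60664 identifiers of the expression table. All 10 are described in 2 human hepatoma lines after knockdown of CENPU, a subunit of the inner kinetochore.

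RNA was sequenced from Huh-7 and from MHCC-97H cells, both labelled wild type, with 3 samples in each of 4 groups. Cells of each line received either si-CENPU, a small interfering RNA that targets CENPU, or the control si-NC. No label says that the samples of 1 group are separate cultures, and p-values therefore measure a spread between samples that may be technical. Values are TPM, transcript abundances scaled for length and to a fixed total per library, which keep no sequencing depth. In Huh-7, CENPU lay at 0.53 to 0.84 TPM with si-NC and at 0.11 to 0.45 TPM with si-CENPU. The MHCC-97H ranges were 0.83 to 1.17 and 0.22 to 0.45 TPM, so the groups did not overlap in either line. CENPU averaged 0.54 TPM over the 12 samples, below the limit of 1 TPM for testing, so this difference between low values was not tested. The 10 hepatocyte markers summed to between 6669 and 7595 TPM in the Huh-7 libraries and to between 0.74 and 1.74 TPM in the MHCC-97H libraries, where each of the 10 was below 1 TPM in every group. Huh-7 si-NC replicate 1 stood apart, with a mean correlation to the other libraries of its line of 0.965 against 0.975 to 0.978 for the rest.

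The members are joined by the BH3 motif, the short helix through which family proteins grip each other. The coding sequence of that motif is shown for each gene, since it is the feature that the guardians, the pore formers and the BH3-only genes have in common. Each run holds 54 coding bases read 5′ to 3′ from GENCODE release 29 transcripts on GRCh38, and the capitals mark the 18 bases of a leucine codon, 3 codons of any kind, a glycine or alanine codon and an aspartate codon.
BCL2: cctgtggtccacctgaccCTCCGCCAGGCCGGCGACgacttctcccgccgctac
BCL2L1: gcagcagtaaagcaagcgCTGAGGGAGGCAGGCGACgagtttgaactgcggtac
MCL1: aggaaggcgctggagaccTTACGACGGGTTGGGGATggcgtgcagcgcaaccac
BAX: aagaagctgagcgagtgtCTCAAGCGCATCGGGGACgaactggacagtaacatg
BAK1: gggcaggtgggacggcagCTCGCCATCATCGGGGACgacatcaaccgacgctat
BOK: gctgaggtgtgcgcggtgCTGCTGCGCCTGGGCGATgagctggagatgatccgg
BID: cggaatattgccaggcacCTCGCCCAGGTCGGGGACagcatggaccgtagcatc
BIK: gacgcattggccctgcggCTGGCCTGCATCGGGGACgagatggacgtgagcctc
BBC3: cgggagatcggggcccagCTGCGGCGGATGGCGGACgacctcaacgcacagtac
PMAIP1: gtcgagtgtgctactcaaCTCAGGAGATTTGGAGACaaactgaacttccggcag

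Each of the 10 coding sequences held exactly 1 match of this codon pattern, searched in frame on the coding strand. The pattern is short: 24.8% of all 19490 coding genes held at least 1 match, and 11.5% of the 7633 coding genes no longer than the longest member. A glycine codon stood at the fifth place in all members except BBC3, which has the alanine codon GCG. The last codon was GAC in 8 members and GAT in the other two, BOK and MCL1. Among the guardians, the printed stretches lie in exon 1 of BCL2 (chr18:63318343-63318396, minus strand), exon 1 of BCL2L1 (chr20:31721916-31721969, minus strand) and exon 1 of MCL1 (chr1:150578859-150578912, minus strand), counting exons along the transcript used. Among the pore formers they lie in exon 3 of BAX (chr19:48955769-48955822, plus strand) and exon 4 of BAK1 (chr6:33575381-33575434, minus strand), and that of BOK runs across the intron between exons 2 and 3 (chr2:241559673-241562370, plus strand). Among the BH3-only genes they lie in exon 4 of BID (chr22:17739409-17739462, minus strand), exon 3 of BIK (chr22:43127698-43127751, plus strand), exon 3 of BBC3 (chr19:47226573-47226626, minus strand) and exon 2 of PMAIP1 (chr18:59902655-59902708, plus strand).

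**Figure D1:**
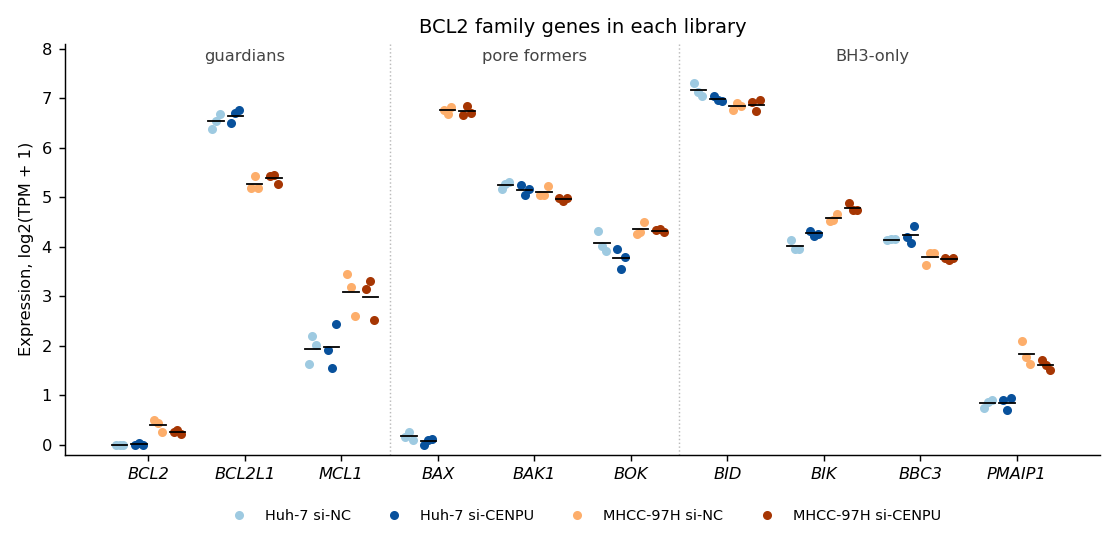
Expression of the 10 genes on the log2(TPM + 1) axis, 1 point per library and a bar at each group's mean, for 3 libraries in each of 4 groups. BID is the highest member in every group, BAX is near 0 in the Huh-7 libraries only, and BCL2 is near 0 in both lines.

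The 2 lines carried different family profiles. In Huh-7, BCL2L1 made up nearly all of the TPM listed for the 3 guardians, and BAX was listed near 0. MHCC-97H had BAX at about the level of BID, less BCL2L1 and more MCL1. TPM is a level per length, so the genes can be ranked within a group. In Huh-7 si-NC the order was BID, BCL2L1, BAK1, then BBC3, BOK and BIK, whose values overlapped, then MCL1, PMAIP1, BAX and BCL2. In MHCC-97H si-NC the order was BID and BAX, which overlapped, then BCL2L1 and BAK1, which also overlapped, then BIK, BOK, BBC3, MCL1, PMAIP1 and BCL2.

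BCL2L1, the guardian known as BCL-XL, lay at 82.81, 92.79 and 101.30 TPM in the Huh-7 controls and at 35.65, 42.16 and 35.49 TPM in the MHCC-97H controls. The lowest Huh-7 value was above the highest MHCC-97H value. The difference was -1.27 ± 0.11 (SE) in log2(TPM + 1), with a limma adjusted p of 1.06e-06. MCL1, a short-lived guardian, lay at 2.10, 3.56 and 3.03 TPM in the Huh-7 controls and at 10.01, 8.16 and 5.06 TPM in the MHCC-97H controls, a log2 difference of 1.14 ± 0.29 (limma adjusted p = 0.00455). BCL2, the founding member of the family, was listed at 0 TPM in 5 of the 6 Huh-7 libraries and at 0.02 TPM in the remaining one. In MHCC-97H it lay at 0.42, 0.35 and 0.20 TPM with si-NC and at 0.19, 0.23 and 0.17 TPM with si-CENPU. Its mean over the 12 samples was 0.13 TPM, below the limit of 1 TPM for testing, so 9 of the 10 members entered the fit. BCL2L1 made up 97.0% ± 0.62 (SD, n = 3) of the summed guardian TPM in Huh-7 si-NC and 82.6% ± 4.9 in MHCC-97H si-NC. These shares cover the 3 listed guardians only and take the low Huh-7 values of BCL2 and MCL1 as listed.

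BAX was listed in Huh-7 at 0.11, 0.20 and 0.07 TPM with si-NC and at 0.00, 0.07 and 0.09 TPM with si-CENPU. The MHCC-97H libraries lay at 107.26, 102.27 and 112.05 TPM with si-NC and at 100.98, 114.46 and 103.10 TPM with si-CENPU. The lines did not overlap (limma adjusted p = 1.62e-13), and no fold is given against values this close to 0. A listed 0 may reflect an estimate that failed, and some genes that dividing cells use also stood near 0 in the Huh-7 libraries. PCNA, the sliding clamp of DNA replication, was listed at 0.01 to 0.23 TPM in Huh-7 against 27.09 to 44.92 TPM in MHCC-97H. CDK4, a cyclin D kinase, was listed at 0.00 to 0.32 against 467.91 to 536.44 TPM. In all, 92 genes were below 0.5 TPM in all 6 Huh-7 libraries and at 20 TPM or more in all 6 MHCC-97H libraries, and 130 genes showed the opposite. Whether the BAX values are failed estimates was not tested, so each statement on BAX in Huh-7 is about the listed value.

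The other pore formers differed less between the lines. BAK1, which acts in parallel to BAX, lay at 35.09, 37.35 and 38.42 TPM in the Huh-7 controls and at 31.97, 32.20 and 36.53 TPM in the MHCC-97H controls, and the groups overlapped. Its log2 difference was -0.14 ± 0.087 (limma adjusted p = 0.175). BOK, a pore former known mainly from the endoplasmic reticulum, lay at 19.07, 15.19 and 14.04 TPM in Huh-7 si-NC against 18.26, 18.74 and 21.68 TPM in the MHCC-97H controls, a log2 difference of 0.27 ± 0.14 (limma adjusted p = 0.0896). It passed the threshold without Huh-7 si-NC replicate 1, with a log2 difference of 0.39 and an adjusted p of 0.0201.

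Of the BH3-only genes, BID was the most abundant, at 157.76, 138.49 and 131.11 TPM in the Huh-7 controls and at 107.12, 119.49 and 114.50 TPM in the MHCC-97H controls. Every Huh-7 value was above every MHCC-97H value, with a log2 difference of -0.32 ± 0.089 (limma adjusted p = 0.00688). BBC3, or PUMA, a BH3-only gene induced by DNA damage, lay at 16.53 to 16.83 TPM in the Huh-7 controls and at 11.33 to 13.76 TPM in the MHCC-97H controls, a log2 difference of -0.35 ± 0.11 (limma adjusted p = 0.0125). Without MHCC-97H si-NC replicate 1 that call was lost, at -0.27 with an adjusted p of 0.0545. PMAIP1, or NOXA, whose protein binds MCL1, lay at 0.67 to 0.87 TPM in the Huh-7 controls and at 2.09 to 3.26 TPM in the MHCC-97H controls, a log2 difference of 0.99 ± 0.15 (limma adjusted p = 9.44e-05). BIK, a BH3-only gene whose protein sits on the endoplasmic reticulum, lay at 16.64, 14.43 and 14.51 TPM in the Huh-7 controls and at 21.93, 22.44 and 24.40 TPM in the MHCC-97H controls, with no overlap and a log2 difference of 0.56 ± 0.091 (limma adjusted p = 1.80e-04).

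In this contrast 7 of the 9 tested members passed an adjusted p of 0.05, 4 higher and 3 lower in MHCC-97H, beside 73.0% of all 11088 tested genes, so a call here says little about the members in particular. Of those called higher, BAX and PMAIP1 passed the limit for testing only through their MHCC-97H values, which favours that direction. The median tested gene was 0.49 higher in MHCC-97H on the log2 scale, and 5557 of the 8099 called genes (68.6%) were higher there. Trimmed-mean scaling, which brought that median to about 0, gave 3742 higher of 7623 called genes (49.1%). Quantile normalization brought it to 0.13 and gave 4340 of 7862 (55.2%). The correction for GC content brought it to 0.012 and gave 3944 of 7769 (50.8%). All 3 lowered the shift of the median gene, and what the GC correction changed beyond that shift was not tested. Members named as higher in MHCC-97H must therefore be read against that shift. BIK lost its call under trimmed-mean scaling, where its log2 difference was -0.046 (adjusted p = 0.835), under quantile normalization (0.13, adjusted p = 0.439) and under the GC correction (0.24, adjusted p = 0.11). BAK1, not called on the deposited scale, was lower in MHCC-97H under the same 3 scalings, by -0.76, -0.47 and -0.40 (adjusted p = 0.000883, 0.00284 and 0.002). BCL2L1, BID and BBC3 stayed lower and BAX, MCL1 and PMAIP1 stayed higher in MHCC-97H under each of the 3, with adjusted p below 0.05, but the sizes moved. Trimmed-mean scaling gave -0.96 for BID and -0.95 for BBC3, and the GC correction gave 0.56 for MCL1 and 0.34 for PMAIP1.

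**Figure D2:**
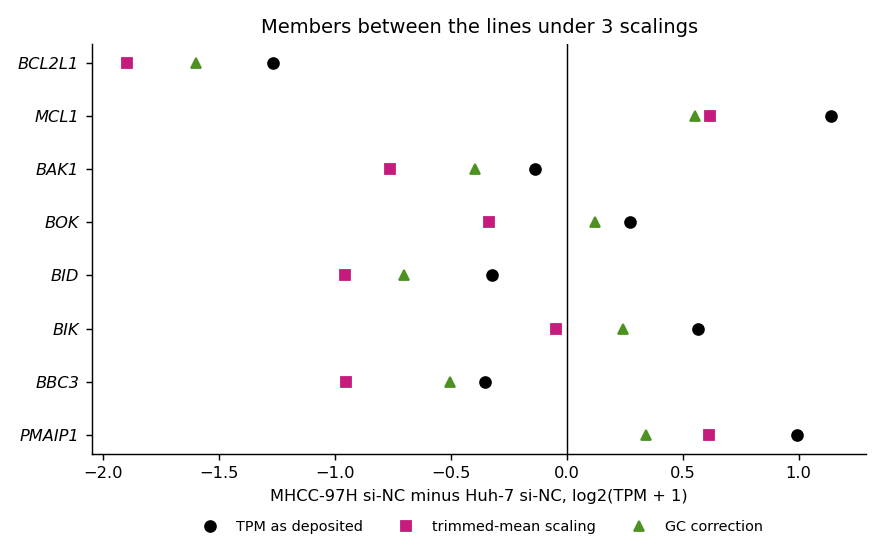
Difference between the lines with si-NC, MHCC-97H minus Huh-7 on log2(TPM + 1), for 8 tested members on the deposited scale (circles), after trimmed-mean scaling (squares) and after the GC correction (triangles); BAX, listed near 0 in Huh-7, is left out. BCL2L1, BID, BBC3 and BAK1 lie left of 0 in all 3, MCL1 and PMAIP1 right of 0 in all 3, and BIK and BOK cross 0.

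Unlike the contrast between the lines, the response to si-CENPU gave no called member. No tested member passed an adjusted p of 0.05 in either line, in the difference of the responses between the lines or in their average. BIK came nearest: it lay above every si-NC library of its line in all 6 si-CENPU libraries, by 20.4% of the mean in Huh-7 and 16.7% in MHCC-97H.

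In Huh-7, BIK lay at 16.64, 14.43 and 14.51 TPM with si-NC and at 19.04, 17.70 and 18.15 TPM with si-CENPU. The group means were 15.2 ± 1.3 and 18.3 ± 0.68 TPM (SD, n = 3), and the groups did not overlap. The log2 change was 0.26 ± 0.091 (SE), with a limma adjusted p of 0.979. In MHCC-97H, BIK lay at 21.93, 22.44 and 24.40 TPM with si-NC and at 28.61, 25.73 and 25.89 TPM with si-CENPU, again without overlap. The means there were 22.9 ± 1.3 and 26.7 ± 1.6 TPM, a log2 change of 0.21 ± 0.091 (limma adjusted p = 1.0). The change in MHCC-97H minus that in Huh-7 was -0.042, with a 95% interval from -0.33 to 0.24. Averaged over both lines, a fit added after the values were seen, the log2 change of BIK was 0.23, with a 95% interval from 0.093 to 0.38 (limma adjusted p = 0.675).

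Those counts stand against the whole table. In Huh-7, 1 of 11088 tested genes passed an adjusted p of 0.05, or 0.00902%, and in MHCC-97H, for the difference between the lines and for the average likewise 1 gene, or 0.00902% each. At an unadjusted limma p below 0.05, 2 of the 9 members (BIK and BOK) stood in Huh-7 beside 4.57% of all tested genes, and 1 (BIK) in MHCC-97H beside 3.42%. The si-NC and si-CENPU groups did not overlap for 2 of 9 members in Huh-7 (BIK higher, BID lower), beside 7.65% of all tested genes in either direction. In MHCC-97H they did not overlap for 2 of 9 (BIK higher, BAK1 lower), beside 6.95%. BIK was 1 of 45 genes, or 0.406% of those tested, that were higher without overlap in both lines. The median log2 change was 0.014 over the members and 0.0095 over all tested genes in Huh-7, and -0.028 and -0.052 in MHCC-97H.

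**Figure D3:**
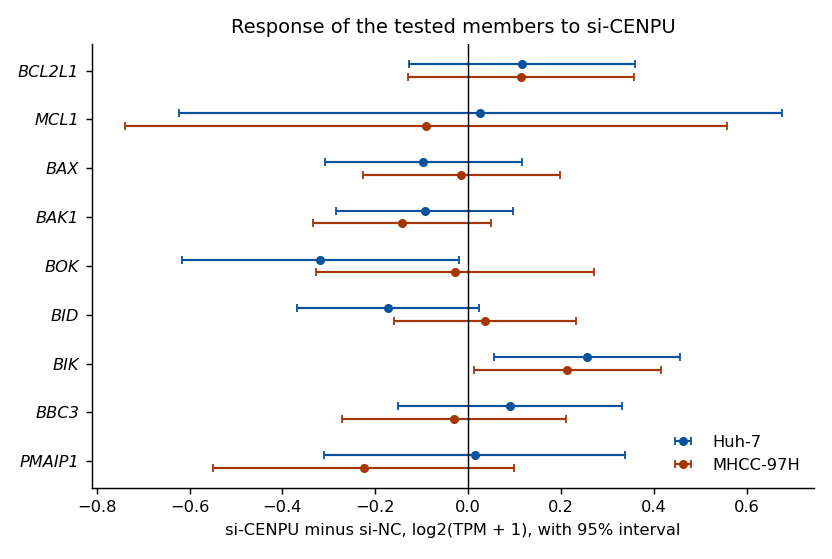
Log2 change of each tested member, si-CENPU minus si-NC on log2(TPM + 1), with 95% intervals from limma, in Huh-7 (blue) and MHCC-97H (brown), 3 libraries per group. The intervals of BIK lie above 0 in both lines and that of BOK below 0 in Huh-7 before adjustment for 11088 genes; the other intervals span 0, and those of MCL1 are the widest.

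BOK was the other member with an unadjusted p below 0.05 in Huh-7. It lay at 19.07, 15.19 and 14.04 TPM with si-NC and at 14.51, 10.65 and 12.94 TPM with si-CENPU, and the groups overlapped because si-CENPU replicate 1 exceeded si-NC replicate 3. The log2 change was -0.32 ± 0.14 (limma adjusted p = 1.0). In MHCC-97H, BOK lay at 18.26, 18.74 and 21.68 TPM with si-NC and at 19.13, 19.61 and 18.59 TPM with si-CENPU, a log2 change of -0.028. The difference of the 2 responses was 0.29, with a 95% interval from -0.13 to 0.71 (limma adjusted p = 0.999). Without Huh-7 si-NC replicate 1, the highest control and the library that stood apart, the Huh-7 change of BOK was -0.20.

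BID in Huh-7 lay at 157.76, 138.49 and 131.11 TPM with si-NC and at 130.68, 124.78 and 122.31 TPM with si-CENPU. The groups did not overlap, though the nearest libraries were only 131.11 and 130.68 TPM. The log2 change was -0.17 ± 0.089 (limma adjusted p = 1.0), and -0.098 without Huh-7 si-NC replicate 1. In MHCC-97H, BID lay at 107.12, 119.49 and 114.50 TPM with si-NC and at 119.90, 106.81 and 123.35 TPM with si-CENPU, which overlapped, with a log2 change of 0.036. The difference between the 2 responses was 0.21, with a 95% interval from -0.068 to 0.48 (limma adjusted p = 0.999).

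**Figure D4:**
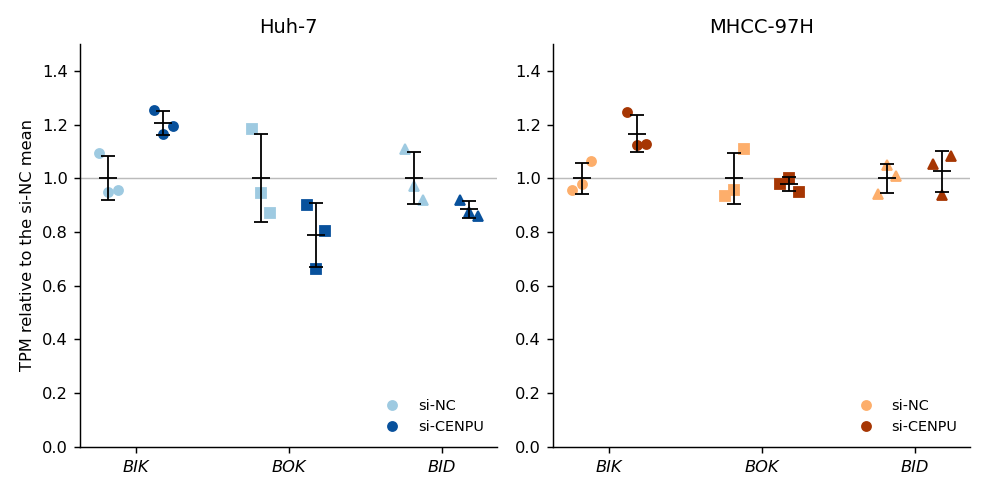
TPM of BIK, BOK and BID in each library relative to the si-NC mean of its line, with the group mean and SD (n = 3) as bars, in Huh-7 (left) and MHCC-97H (right). The si-CENPU libraries of BIK lie above all si-NC libraries in both panels, the Huh-7 si-CENPU libraries lie below the controls for BID and overlap them for BOK, and both genes overlap in MHCC-97H.

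For the remaining pore formers and BH3-only genes no difference passed the test. BAK1 lay at 36.80, 31.89 and 35.09 TPM in Huh-7 si-CENPU, overlapping its controls, and at 30.70, 29.49 and 30.56 TPM in MHCC-97H si-CENPU, each below its 3 controls of 31.97 to 36.53 TPM. Its log2 changes were -0.094 and -0.14 (limma adjusted p = 1.0 in both lines). BAX in MHCC-97H differed by -0.015 on the log2 scale, with a 95% interval from -0.23 to 0.20. BBC3 lay at 15.89 to 20.52 TPM in Huh-7 si-CENPU and at 12.27 to 12.74 TPM in MHCC-97H si-CENPU, with log2 changes of 0.090 and -0.031. PMAIP1 lay at 0.63 to 0.92 TPM and at 1.83 to 2.26 TPM in the respective si-CENPU groups, with log2 changes of 0.014 and -0.22. BBC3 and PMAIP1 overlapped their controls in both lines.

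Among the guardians, BCL2L1 lay at 89.46, 103.10 and 107.43 TPM in Huh-7 si-CENPU and at 42.39, 42.84 and 37.38 TPM in MHCC-97H si-CENPU, overlapping the controls in both lines. The log2 change was 0.11 ± 0.11 in each line, with 95% intervals from -0.13 to 0.36 in both. MCL1 lay at 2.76, 1.95 and 4.42 TPM in Huh-7 si-CENPU and at 7.87, 8.97 and 4.72 TPM in MHCC-97H si-CENPU. Its log2 changes of 0.026 and -0.091 had an SE of 0.29, the largest of any tested member, so a change of MCL1 of up to 0.67 in Huh-7 or -0.74 in MHCC-97H lay inside the 95% intervals. For BCL2 in MHCC-97H the log2 change was -0.14, with an exact two-sided permutation p of 0.2, where 0.1 is the smallest that 3 against 3 samples allow. At this level the pseudocount sets the size, which was -0.23 with a pseudocount of 0.5 and -0.48 with 0.1.

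The spread of MCL1 moved with a property of the libraries. The transcripts of MCL1 have a GC content of 47.9%, below the median of 52.6% over the tested genes. For each library, the GC trend is the Spearman correlation, over the tested genes with a known GC content, between that content and the library's deviation from the mean of its line. In MHCC-97H, MCL1 was lowest in the 2 libraries with the highest GC trends, at 5.06 TPM with a trend of 0.476 and at 4.72 TPM with 0.303. It was highest, at 10.01 TPM, in the library with the lowest trend, -0.529. In Huh-7, the 2 lowest values, 2.10 and 1.95 TPM, stood at trends of 0.335 and 0.133, and the 2 highest, 3.56 and 4.42 TPM, at -0.329 and -0.23. The part of the GC trend in the spread of MCL1 was not tested.

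**Figure D5:**
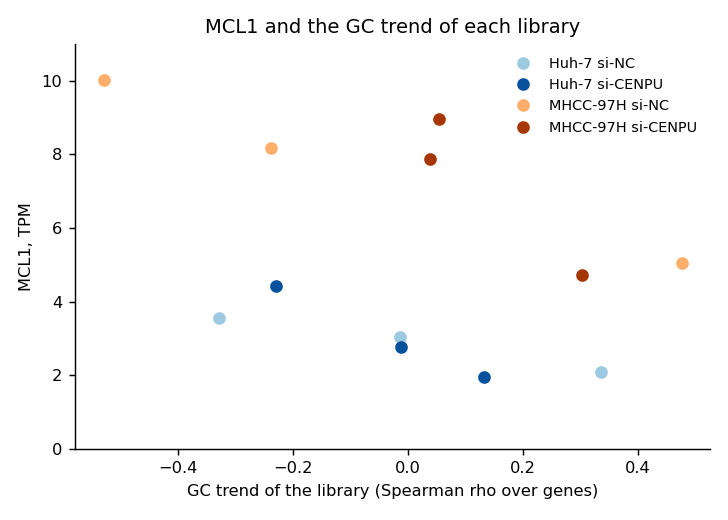
MCL1 in TPM against the GC trend of each library, the Spearman correlation over genes between transcript GC content and the library's deviation from its line mean, for 12 libraries in 4 groups. Within each line the libraries with the highest GC trends are among the lowest in MCL1, from 10.01 TPM at a trend of -0.529 to 5.06 TPM at 0.476 in MHCC-97H.

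The balance of the family was described in each library as the log2 ratio of the summed TPM of BAX, BAK1 and BOK over that of BCL2, BCL2L1 and MCL1, a ratio of transcripts and not of proteins. In Huh-7 it was -0.65, -0.87 and -0.99 with si-NC and -0.85, -1.30 and -1.22 with si-CENPU, so guardian transcripts were the larger sum in every library and the groups overlapped. In MHCC-97H it was 1.77, 1.60 and 2.06 with si-NC and 1.58, 1.65 and 1.85 with si-CENPU, so pore-former transcripts were the larger sum in every library, again with overlap. Between the means of si-CENPU and si-NC the ratio differed by -0.29 for Huh-7 and by -0.12 for MHCC-97H, the latter ranging from -0.22 to 0.0089 when single libraries were left out. Without BAX, whose Huh-7 values may be failed estimates, the si-NC means were -0.84 ± 0.17 for Huh-7 and 0.22 ± 0.27 in MHCC-97H (SD, n = 3). The sum of BAK1 and BOK was 53.1 ± 0.96 TPM in Huh-7 si-NC and 53.1 ± 4.4 TPM in the MHCC-97H controls, and the guardian sums were 95.2 ± 9.8 and 45.8 ± 5.0 TPM. These sums are on the deposited scale, where the median tested gene was 0.49 higher in MHCC-97H on the log2 scale. BAK1 was lower in MHCC-97H after trimmed-mean, quantile and GC scaling, so the like sums of BAK1 and BOK hold on the deposited scale only.

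Around the family, 7 lists of 77 genes covered other BCL2 family genes, caspases and mitochondrial factors, inhibitor of apoptosis proteins, death receptors, DNA damage response genes, the ATF4 and CHOP stress genes that can drive BH3-only transcription, and regulators of MCL1 turnover. Of these, 52 were tested, and limma called 0 in either line, with 3 in Huh-7 (BAD, FADD and TRIB3) and 1 in MHCC-97H (TRIB3) at an unadjusted p below 0.05. These are 5.77% and 1.92% of the tested list genes, near the 4.57% and 3.42% of all tested genes. TRIB3, a pseudokinase induced by ATF4 and CHOP, lay in Huh-7 at 54.02, 59.75 and 61.79 TPM with si-NC and at 72.77, 65.97 and 71.54 TPM with si-CENPU. The MHCC-97H libraries lay at 40.05, 44.79 and 45.89 TPM with si-NC and at 54.88, 60.64 and 53.17 TPM with si-CENPU. As for BIK, no si-CENPU library overlapped the controls in either line. The log2 changes were 0.26 ± 0.090 (limma adjusted p = 0.963) and 0.36 ± 0.090 (adjusted p = 0.740). Averaged over both lines the change of TRIB3 was 0.31 ± 0.063 (limma adjusted p = 0.253), and under the GC correction alone among the alternatives that average was called (0.30, adjusted p = 0.0139).

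FADD, the adaptor that links death receptors to caspase activation, lay at 19.86, 20.96 and 21.24 TPM in the Huh-7 controls and at 24.48, 27.76 and 25.85 TPM with si-CENPU. These groups did not overlap, with a log2 change of 0.32 ± 0.090 (limma adjusted p = 0.828). BAD, a BH3-only gene whose protein is silenced by phosphorylation, differed by -0.21 in Huh-7 (limma adjusted p = 1.0), with overlap. Other genes with the lowest limma p of their list stayed above 0.05 before adjustment: BIRC5 (survivin) and USP9X, both near 0, and FDXR (log2 change -0.21) in Huh-7, and BCL2L12 (-0.087), BIRC7 (0.15), CFLAR (0.17), GADD45A (-0.41) and USP13 (-0.50) in MHCC-97H. BIRC5 was listed at 0.00, 3.74 and 0.14 TPM in the Huh-7 controls and at 0.08, 0.00 and 0.00 TPM with si-CENPU, so its difference there rested on 1 library. USP9X was listed at 0.19, 0.06 and 0.52 TPM in the Huh-7 controls and at 0.00, 0.00 and 0.11 TPM with si-CENPU. Both passed the limit for testing through their MHCC-97H values.

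Between the lines with si-NC, 37 of the 52 tested genes of these lists (71.2%) were called, about the share of all tested genes (73.0%), with 27 higher and 10 lower in MHCC-97H on the deposited scale and 20 higher and 19 lower of 39 after trimmed-mean scaling. The count therefore says nothing particular about these lists. All 5 tested inhibitor of apoptosis genes were called higher in MHCC-97H on the deposited scale and after trimmed-mean scaling, and 4 of the 5 after the GC correction. These 5 passed the limit for testing through their MHCC-97H values, which favours this direction. On the deposited scale 5557 of the 11088 tested genes were called higher, and the 5 are not read as a result about this list. BIRC7 was listed at 0.00 to 0.08 TPM in the Huh-7 controls and at 108.81 to 125.94 TPM in the MHCC-97H controls. TNFRSF1A, the main TNF receptor, was listed at 0.02 to 0.13 TPM in the Huh-7 controls and at 33.72 to 40.14 TPM in the MHCC-97H controls. TNFRSF1A likewise passed the limit for testing through its MHCC-97H values. BIRC7 and TNFRSF1A share with BAX the listing near 0 in Huh-7 beside PCNA and CDK4, so their absence from those cells is not shown. Away from 0, BAD was 4.61-fold higher in MHCC-97H by the ratio of the means (log2 difference 2.20, limma adjusted p = 1.97e-09). BCL2L12 was 1.84-fold higher in Huh-7 (log2 difference -0.88, limma adjusted p = 3.64e-07). Both folds are on the deposited scale, and after trimmed-mean scaling the log2 differences were 1.56 for BAD and -1.52 for BCL2L12. BMF, a BH3-only gene tied to the cytoskeleton, lay at 2.01 to 2.74 TPM in the Huh-7 controls and was listed at 0.13 to 0.19 TPM in the MHCC-97H controls. BMF passed the limit for testing through its Huh-7 values, which favours that direction.

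The other called genes with the largest differences per list kept their sign under trimmed-mean, quantile and GC scaling. Higher in MHCC-97H were VDAC1, the main channel of the outer mitochondrial membrane (log2 difference 1.75), the mitochondrial protease HTRA2 (1.63) and BNIP3L, a mitophagy receptor at 0.36 to 0.83 TPM in the Huh-7 controls (1.29). Also called higher there, from Huh-7 controls near 0, were the cell-cycle inhibitor CDKN1A, listed at 0.04 to 0.09 against 5.42 to 5.93 TPM, and the deubiquitinases that can spare MCL1, USP13 at 0.17 to 0.42 against 5.28 to 10.18 TPM and USP9X at 0.06 to 0.52 against 1.57 TPM or more. As for BAX, those Huh-7 values are listed values and no fold is given. CDKN1A, USP13, USP9X and BNIP3L also passed the limit for testing through their MHCC-97H values, which favours that direction. The same holds for TNFRSF10A, at 0.44 to 0.69 TPM in the Huh-7 controls. The death receptor TNFRSF10A (0.70) and the stress factor ATF3 (0.65) were called on the deposited scale, but ATF3 was called in 15 of 21 alternatives and under none of the 3 scalings, and TNFRSF10A was not called under the GC correction (adjusted p = 0.0561). Leaving out Huh-7 si-NC replicate 1, or MHCC-97H si-NC replicate 1 or 2, also ended the call of ATF3. Lower in MHCC-97H were the caspase CASP9 (-0.58), the decoy receptor TNFRSF10D (-1.57), TRADD (-0.42), SESN2 (-1.40), PIDD1 (-0.59), the glutathione-degrading CHAC1 (-2.34) and TRIB3 (-0.42). TNFRSF10D, at 0.51 to 0.79 TPM in the MHCC-97H controls, passed the limit for testing through its Huh-7 values, which favours this direction. CASP6 (-0.62) passed with a limma adjusted p of 0.0492 on the deposited scale, its groups overlapped, and it was not called in 12 of 21 alternatives, with adjusted p up to 0.201 without Huh-7 si-NC replicate 2 (-0.38). Under trimmed-mean, quantile and GC scaling it was called at -1.08, -1.04 and -1.28.

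Of the genes whose pattern over the 12 libraries was most like that of BIK, after the mean of each line was removed, EMC6, part of a complex that inserts membrane proteins into the endoplasmic reticulum, came first (r = 0.893) and BORCS8 next (r = 0.886), among 11087 genes searched. EMC6 lay at 744.94 to 816.11 TPM in Huh-7 si-NC and 1081.40 to 1196.40 TPM with si-CENPU, and at 195.70 to 241.47 and 303.67 to 347.91 TPM in MHCC-97H. For BCL2L1 the closest were IMPA2 (r = 0.937) and DYNLRB1 (r = 0.929), for MCL1 TMPO (r = 0.970) and RNF141 (r = 0.964), and for BAX SEMA7A (r = 0.807) and STK11IP (r = 0.791). Only line means were removed, so the difference between si-CENPU and si-NC is part of each coefficient. BIK and EMC6 were both higher with si-CENPU in both lines, and how much of their r this makes up was not tested. These coefficients were picked as the highest of many and the 12 libraries share GC trends, so they carry no p and only describe the libraries.

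The genes lie apart in the genome except for pairs on 1 chromosome. On GRCh38 with GENCODE release 29, BIK (chr22:43110748-43129712) and BID (chr22:17734138-17774770) are both on chromosome 22, BAX (chr19:48954815-48961798) and BBC3 (chr19:47220822-47232766) on chromosome 19, and BCL2 (chr18:63123346-63320128) and PMAIP1 (chr18:59899948-59904306) on chromosome 18. No annotated gene overlaps BIK, BAX or PMAIP1. BOK overlaps BOK-AS1 and BCL2L1 overlaps ABALON on the opposite strand, MCL1 overlaps ADAMTSL4-AS1 on its own strand, BAK1 overlaps GGNBP1 and has 2 named pseudogenes, and BBC3 and BID hold microRNA genes. The sources used here do not give the strand setting of the quantification, so for the overlapping members reads of the partner cannot be told apart from their own.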

How the data were processed

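The table holds 1 TPM column for each of the 12 samples. Per the submitters' processing notes, the authors made the deposited TPM values with HISAT2 and StringTie on GRCh38.p13. No versions, annotation release or strand setting are given in these sources. TPM keeps no depth, so no counting interval is given. Groups and replicate numbers came from the sample titles. The members and gene lists were chosen with earlier results of these data known.

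The 11088 genes averaging 1 TPM or more were fitted with limma 3.58.1 in R 4.3.3 on log2(TPM + 1), with 1 mean per group, a mean-variance trend and two-sided p-values, with Benjamini-Hochberg adjustment within a contrast. A gene was called at an adjusted p below 0.05. Changes on this scale understate those of low genes. The script was tested on simulated data. BCL2, below the limit, had an exact permutation test.

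All members are named. Some list genes that the rule below takes are not reported here. From each list the text takes the gene with the smallest p per response and, between lines, up to 2 called genes of largest change in each direction; PCNA and CDK4 were chosen after their values were seen. For BIK, BAX, BCL2L1 and MCL1, the 2 genes of highest Pearson r are given. Alternatives were no filter or a limit of 5 TPM, pseudocounts of 0.1 and 0.5, trimmed-mean, quantile and reduced-set scaling, GC correction (GC known for 98.9% of tested genes), each line alone, a replicate block, no trend, and each library left out. The average of both lines was added after seeing the data. Protein sequences were not used here; coding bases were read from GENCODE release 29.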

Additional observations from a re-analysis of the deposited data

How the results depend on the processing

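No member was called in either response, in the difference between the lines or in their average under any alternative run, and BIK stayed above 0 in all 23 alternatives, at 0.22 to 0.32 in Huh-7 (adjusted p from 0.674 to 1.0) and 0.17 to 0.29 in MHCC-97H (0.66 to 1.0). Between the lines, 7 members were called on the deposited scale and 6 at a mean TPM of at least 5, where PMAIP1 was not tested. The number of genes called over the whole table moved between 0 and 11 in Huh-7, 0 and 8 in MHCC-97H, 0 and 6 for the difference and 0 and 25 for the average, and was 4405 between the lines at a mean TPM of at least 5, where fewer genes were tested.

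Several uncalled responses close to 0 turned sign, and the cause was not tested. Under the GC correction MCL1 changed by -0.0132 in Huh-7 and 0.0112 in MHCC-97H, and PMAIP1 by -0.0129 in Huh-7. PMAIP1 in Huh-7 changed by -0.00129 under trimmed-mean scaling and -0.00583 under quantile normalization. In MHCC-97H, trimmed-mean scaling, quantile normalization and rescaling without mitochondrial and the 100 most abundant genes gave 0.0414, 0.0320 and 0.0110 for BOK, 0.0592, 0.00649 and 0.0262 for BAX, and 0.0370, 0.0370 and 0.00762 for BBC3. The difference of the BIK responses became 0.0552, 0.0598 and 0.0189 under these 3 and 0.0424 under the GC correction; that of BAK1 became 0.0545, 0.00294 and 0.0149 under the same 3; and that of BCL2L1 became 0.10, 0.0916 and 0.0644, with 0.0867 under the GC correction, where MCL1 gave 0.0244. Between the lines, the called difference of BIK, 0.56, became -0.0457 under trimmed-mean scaling, and that of BOK, 0.27 and not called, became -0.335 there and -0.152 under quantile normalization.

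With single libraries left out, the Huh-7 change ranged from -0.208 to 0.231 for MCL1, -0.00514 to 0.170 for BBC3 and -0.0352 to 0.0877 for PMAIP1. In MHCC-97H it ranged from -0.0737 to 0.0442 for BOK, -0.0695 to 0.0201 for BAX, -0.334 to 0.148 for MCL1, -0.115 to 0.0145 for BBC3 and -0.00617 to 0.0976 for BID. The difference of the responses ranged from -0.105 to 0.00227 for BIK, -0.105 to 0.0115 for BAK1, -0.0792 to 0.0778 for BCL2L1 and -0.360 to 0.122 for MCL1. Without Huh-7 si-NC replicate 1, 3 members did not overlap in Huh-7 (BIK higher, BAK1 and BID lower) in place of 2. With 1 control fewer, groups separate more readily for any gene, and the share over all tested genes was not computed for this setting. The rise is therefore not read as a result about the members.

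With the replicate number as a block within each line, 0 members were called in either response and 7 between the lines, and the log2 change of BIK stayed at 0.26 and 0.21; over all genes, 0 were called in each response and 8233 between the lines. Same-numbered libraries correlated in their deviations by -0.032, -0.091 and 0.028 in Huh-7 and -0.033, -0.091 and 0.13 in MHCC-97H. Replicate 3 of MHCC-97H correlated best with its own number, but not every library did, so the numbers gave no consistent sign of pairing. Deviations from the mean of so few libraries constrain each other, and this check cannot exclude a pairing.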
